A study of Xenopus laevis with 3 samples.

Results

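The genes described here encode the subunits of the proteasome, its activators, its inhibitor and its assembly chaperones in the liver of female African clawed frogs (Xenopus laevis). They were taken by symbol, from psma to psmg followed by a number, with 1 row for each .L or .S copy, represented by the probe set with the highest mean. This species is an allotetraploid, and .L and .S mark the copies on its long and short chromosomes. The rule gave 60 gene copies of 42 genes, out of 11303 gene copies named by a single symbol on the array. Of these, 23 belong to the core particle (12 psma and 11 psmb), 33 to the caps and activators (9 psmc, 18 psmd and 6 psme) and 4 are the inhibitor psmf1 and the chaperones psmg1, psmg2 and psmg3.

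Each of 3 Affymetrix arrays held the liver RNA of 1 group, given the solvent DMSO, pregnenolone at 50 mg/kg or artemisinin at 200 mg/kg, both dissolved in DMSO. Injections were intraperitoneal, on 2 consecutive days, into 3 frogs per compound kept in water at 22 °C, and livers were taken 24 h after the last injection. The labels give neither the number of control frogs nor a strain or an age, and the RNA of a group was pooled. The study looked for targets of xlCAR, the frog form of a nuclear receptor that governs drug-metabolising enzymes in mammals. Pregnenolone is the precursor of the steroid hormones and artemisinin an antimalarial drug. With 1 array per group no difference has a replicate error and none was tested, so all differences below describe these 3 arrays, on the log2 scale of the deposited values. In pooled tissue, fewer cells of a type and less RNA per cell cannot be told apart.

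The proteasome is the protease that degrades proteins tagged with ubiquitin in the cytosol and nucleus. Its core particle is a barrel of stacked rings, with outer rings of alpha subunits (psma genes) that gate the entrance and inner rings of beta subunits (psmb genes), of which psmb5, psmb6 and psmb7 carry the proteolytic sites. The regulatory cap binds tagged proteins, removes the ubiquitin and threads the chain into the barrel with a ring of ATPases (psmc genes), and the psme genes encode alternative activators that dock to the same place. In mammals the subunit genes are regulated together by the transcription factor NFE2L1 when proteasome activity is short.

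Proteasome transcripts were lowest on the DMSO array for most members. The lowest of the 3 values lay on the DMSO array for 40 of 60 gene copies, against 21.7% of all gene copies. It lay on the pregnenolone array for 11 members (25.5% of all gene copies) and on the artemisinin array for 3 (25.1% of all). The highest value was split between the treated arrays, with 28 members highest on pregnenolone (28.7% of all gene copies), 27 on artemisinin (22.6% of all) and 2 on DMSO (21.7% of all). Many features hold exactly equal values on several arrays: the lowest value was shared for 27.7% of all gene copies and for 6 members, and the highest for 27% and for 3 members. Among gene copies at or above the level of the median probe set (a mean of 5.61 over the arrays), where 58 members lie, 25.1% of all were lowest on DMSO. Median centring breaks these ties and gave 46 members and 47.0% of all gene copies lowest on DMSO, so the distance from the background was smaller there.

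**Figure D1:**
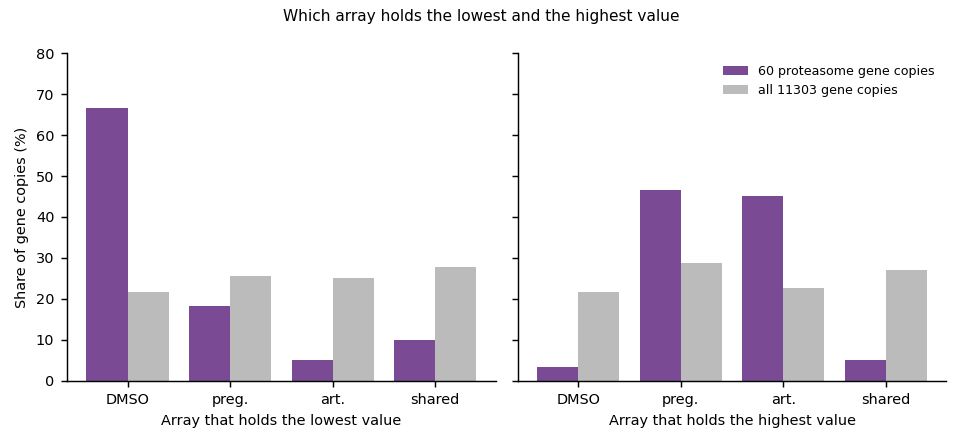
Share of gene copies (%) whose lowest (left) or highest (right) value lies on each array, or is shared by arrays, for the 60 proteasome gene copies (purple) and all 11303 gene copies (grey). The DMSO array holds the lowest value for 66.7% of the proteasome copies and the highest for 3.33%.

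The differences were small. The median over the 60 members was 0.18 for pregnenolone minus DMSO (1.13-fold) and 0.21 for artemisinin minus DMSO (1.16-fold), while the median over all gene copies was 0 in both. The middle 50% of members ran from 0.01 to 0.41 with pregnenolone and from 0.09 to 0.30 with artemisinin. Values above DMSO were found for 45 members with pregnenolone (39% of all gene copies) and for 50 with artemisinin (37.1% of all). Values below DMSO were found for 13 members (36.6% of all) and for 4 members (38.8% of all). The rest equalled DMSO, 2 and 6 members against 24.4% and 24.1% of all gene copies. Among gene copies at or above the level of the median probe set, 45.8% lay above DMSO with pregnenolone and 40.3% with artemisinin. Those below were 40.9% and 45.2%. Both comparisons use the same DMSO array, so a low reading there would enter both. Between the compounds the members balanced, with 28 higher on artemisinin (37.8% of all), 29 higher on pregnenolone (41.1% of all) and a median of 0.

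Markers of other tissues also differed between the arrays. For the counts that follow, 3.75% of all gene copies were at least 1.5-fold lower with pregnenolone and 4.64% higher. With artemisinin these shares were 2.26% and 2.35%. Of 10 gene copies of digestive enzymes of the exocrine pancreas, 9 were at least 1.5-fold lower with pregnenolone, and with artemisinin 9 were lower and 1 higher (pnliprp2.L, at 6.29, 5.84 and 7.49). Their summed linear level was 9302 on DMSO, 399.7 on pregnenolone and 489.7 on artemisinin. Smooth muscle and stellate cell genes were at least 1.5-fold lower for 5 of 10 copies with pregnenolone and for 4 with artemisinin, and their sum went from 2095 on DMSO to 848.4 and 711.1. Erythrocyte genes were at least 1.5-fold lower for 2 of 9 copies with pregnenolone and for 5 with artemisinin. Their median differences from DMSO were 0.02 and -0.72. The sums were 45010, 47141 and 42055, so that the sum on DMSO lay between those on the treated arrays. These sums rest mostly on the brightest copies, hbg1.L, at 14.56, 14.58 and 14.53, and hba1.S, at 13.99, 14.08 and 13.94. Of 15 copies of hepatocyte genes 14 lay above the level of the median probe set on average. So did most of all gene copies, with 7478 of 11303 at or above it, and 0 of the 9 erythrocyte copies lay below it. This level therefore does not test the liver label. The sum of the hepatocyte copies was 139183 on DMSO, 126045 on pregnenolone and 147326 on artemisinin. Of these hepatocyte copies 4 were at least 1.5-fold lower with pregnenolone and 0 higher, and 2 higher and 0 lower with artemisinin. The fibrinogen gene fgb.L stood at 14.28, 14.22 and 14.32, and the transthyretin gene ttr.L at 10.32, 8.46 and 11.20. The part of the other tissues in the proteasome values was not tested.

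The counts at 1.5-fold, a log2 difference of 0.585, were close to the background. With pregnenolone 4 of 60 members were at least 1.5-fold higher than DMSO, against 4.64% of all gene copies, and 0 were lower, against 3.75%. With artemisinin 1 member was higher, against 2.35% of all gene copies, and 1 lower, against 2.26%. Between the compounds 2 members were at least 1.5-fold higher on artemisinin, against 3.89% of all, and 3 lower, against 4.86%. At a smaller threshold, a log2 difference of 0.32, the members stood further from the rest in the comparisons with DMSO. There 23 members were higher with pregnenolone, against 11.2% of all gene copies, and 0 lower, against 9.09%. With artemisinin 13 were higher, against 6.94%, and 1 lower, against 7.04%. Between the compounds 9 were higher on artemisinin, against 9.11% of all gene copies, and 7 lower, against 11.9%. Of the 7478 gene copies at or above the level of the median probe set, 1120 were higher with pregnenolone at this threshold and 885 lower. With artemisinin these counts were 629 and 666. All of these are larger shares than those over all gene copies. For higher values the members thus stood less far from this background. At 2-fold 0 members were higher with pregnenolone (1.44% of all gene copies), with artemisinin (0.947%) or on artemisinin over pregnenolone (1.4%). The 1 member at least 2-fold lower was psmd3.S with artemisinin (0.557% of all), and 0 were lower in the other comparisons (1.06% and 1.23% of all).

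The proteolytic subunits held 4 of the 5 highest places among the core genes with pregnenolone. The gene psmb7.S (Entrez gene 447359), whose subunit carries the trypsin-like site, stood at 10.25 on DMSO, 11.01 on pregnenolone and 10.33 on artemisinin. It was 0.76 higher with pregnenolone (1.69-fold) and 0.08 higher with artemisinin, so only the pregnenolone value stood away from the others. The gene psmb6.L (397716), for the caspase-like site, stood at 10.68, 11.38 and 11.07, a difference of 0.70 with pregnenolone (1.62-fold) and 0.39 with artemisinin. Its other copy psmb6.S (734745) stood at 8.60, 9.13 and 8.71. Both copies were thus lowest on DMSO and highest on pregnenolone. The gene psmb5.L (100127332), for the chymotrypsin-like site, stood at 9.83, 10.33 and 10.06, a difference of 0.50 with pregnenolone and 0.23 with artemisinin. Another probe set of psmb5.L gave 0.49 and 0.30.

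A further psmb7 gene went the other way. The copy psmb7.2.L (379551) stood at 7.65 on DMSO, 7.46 on pregnenolone and 8.18 on artemisinin, so pregnenolone held its lowest value and artemisinin its highest. Its difference was -0.19 with pregnenolone, the lowest of the core genes, and 0.53 with artemisinin. Artemisinin minus pregnenolone was 0.72 for psmb7.2.L (1.65-fold higher) and -0.68 for psmb7.S. Over the 5 copies of psmb5, psmb6 and psmb7 the median was 0.52 with pregnenolone and 0.23 with artemisinin, against 0.16 and 0.21 over the other 18 core copies. This grouping was made after the values were seen. The gene psmb8.L (399439), which in mammals replaces psmb5 in the interferon-induced immunoproteasome, stood at 3.95, 3.95 and 4.01, below the level of the median probe set on each array.

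The genes of the alpha ring were split between the compounds. Among the alpha subunits psma4.L (734876) stood at 7.70 on DMSO, 8.23 on pregnenolone and 7.84 on artemisinin, a difference of 0.54 with pregnenolone and 0.15 with artemisinin. Both copies of psma3 showed the reverse: psma3.L (379935) stood at 9.83, 9.71 and 10.07, and psma3.S (379676) at 7.42, 7.33 and 7.59. For these 2 copies pregnenolone gave the lowest value and artemisinin the highest. The other psma4 copy, psma4.S, had this order too, at 9.61, 9.55 and 9.88, so the order of psma4 depended on the copy. The largest core difference with artemisinin was 0.58, for psma6.L (446620), at 9.55, 9.89 and 10.13. Its probe set is marked for possible cross-hybridisation, and the copy psma6.S differed by 0.22. After psmb7.2.L came psma7.S (399109), at 10.16, 10.32 and 10.64. For psma6.L and psma7.S both treated arrays lay above DMSO.

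The alpha subunit psma2.L (399279) stood at 10.49 on all 3 arrays after rounding. The gene psma5.S (444215) stood at 10.62 on DMSO and artemisinin and at 10.88 on pregnenolone, a difference of 0.27 with pregnenolone. Across the 12 psma copies the differences ran from -0.12 to 0.54 with pregnenolone and from 0 to 0.58 with artemisinin, and across the 11 psmb copies from -0.19 to 0.76 and from 0.05 to 0.53. No core copy had its lowest value on artemisinin and none its highest on DMSO. Of all gene copies, 25.1% and 21.7% had these.

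**Figure D2:**
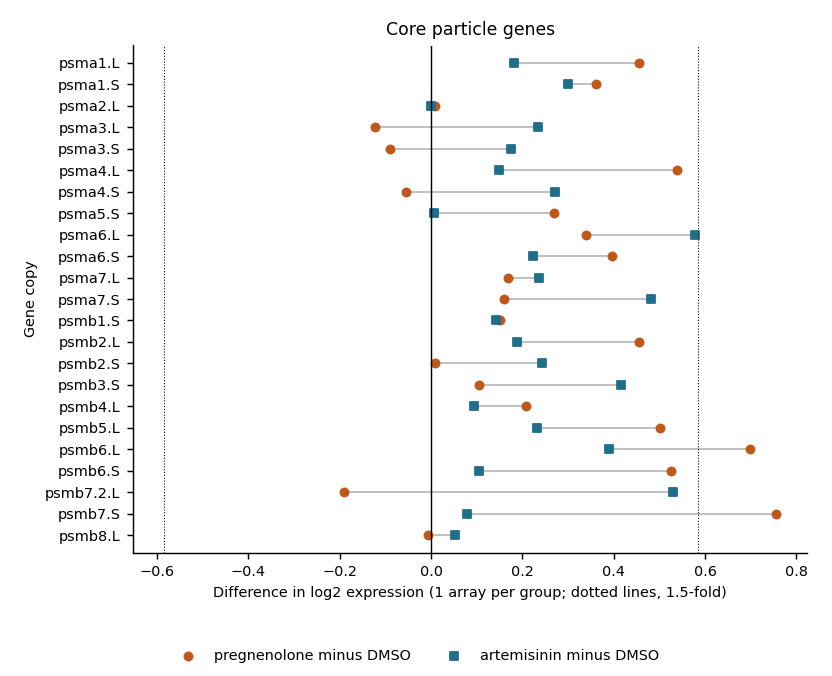
Difference in log2 expression from the DMSO array for each of the 23 core gene copies, with pregnenolone (orange circles) and artemisinin (blue squares), 1 array per group; dotted lines mark 1.5-fold. With artemisinin 22 of 23 copies lie above 0 (37.1% of all gene copies do) and 1 at 0. Only psmb6.L and psmb7.S pass 1.5-fold, with pregnenolone.

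The ATPase ring of the cap, which unfolds the substrate, lay above DMSO in 8 of 9 copies with each compound, and the remaining copy was equal. Of all gene copies, 39% lay above DMSO with pregnenolone and 37.1% with artemisinin. The median of the 9 psmc copies was 0.35 with pregnenolone and 0.19 with artemisinin. The gene psmc2.L (399327) stood at 9.63 on DMSO, 10.17 on pregnenolone and 9.82 on artemisinin, a difference of 0.54 with pregnenolone, with the artemisinin value in between. The copy psmc5.S (397968) stood at 8.73, 8.89 and 9.32. It was 0.60 higher with artemisinin (1.51-fold) and 0.17 higher with pregnenolone, and its other copy psmc5.L showed the same order, at 9.34, 9.48 and 9.66. The 2 psmc6 copies, read by probe sets marked for cross-hybridisation, differed by 0.40 and 0.42 with pregnenolone. The equal copy, psmc3.S, stood at 5.11 on each array, below the level of the median probe set, while psmc3.L differed by 0.35 and 0.13. A dimmer psmc3.L probe set gave 0.10 with pregnenolone and -0.17 with artemisinin.

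In the lid, the part of the cap that removes ubiquitin, psmd14 differed most with pregnenolone. It encodes the metalloprotease that cuts the ubiquitin chain from the substrate. The copy psmd14.L (444285) stood at 8.20 on DMSO, 9.01 on pregnenolone and 8.66 on artemisinin, and psmd14.S (380423) at 8.49, 9.02 and 8.74. Both copies were lowest on DMSO and highest on pregnenolone, with differences of 0.81 (1.75-fold) and 0.54 with pregnenolone and of 0.45 and 0.25 with artemisinin. Of the 11 copies of lid genes, 10 lay above DMSO with pregnenolone (median 0.14) and 9 with artemisinin (median 0.25). Of all gene copies, 39% and 37.1% did. The grouping of lid genes was not among those planned. The ubiquitin receptor psmd4.S (399421) of the cap base stood at 9.86, 10.26 and 10.32, so the treated arrays lay together above DMSO. Another psmd4.S probe set gave 0.32 and 0.44, close to the 0.40 and 0.46 of the one used, and the dimmest gave -0.05 in both comparisons.

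The lid gene psmd3.S (444384) depended on the probe set. The one with the highest mean stood at 9.84 on DMSO, 9.72 on pregnenolone and 8.75 on artemisinin, a difference of -1.09 with artemisinin. The other probe sets of psmd3.S stood at 8.85, 9.00 and 9.04 and at 8.18, 8.36 and 8.32. On these, DMSO held the lowest value, and their differences with artemisinin were 0.19 and 0.14. The 1 member counted as 2-fold lower therefore rests on 1 of 3 probe sets.

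Genes for chaperones of cap assembly, which the symbols place among the cap genes, did not share the pattern with artemisinin. The copy psmd9.L (444742) stood at 6.83 on DMSO, 7.31 on pregnenolone and 6.62 on artemisinin, and psmd9.S (379096) at 9.04, 9.22 and 8.95. In both, pregnenolone gave the highest value and artemisinin the lowest, and for psmd9.L artemisinin minus pregnenolone was -0.69. The gene psmd10.L (495968) stood at 6.49, 6.31 and 6.49, and psmd5.L at 7.88, 7.87 and 7.87. Of these 4 copies 0 lay above DMSO with artemisinin, and 37.1% of all gene copies did. Their differences with artemisinin were small, from -0.21 to 0, and this grouping was not among those planned. The chaperones of core assembly gave mixed values: psmg1.L (779398) stood at 8.61, 8.45 and 8.84, psmg2.L (380126) at 8.10, 8.29 and 8.10, and psmg3.L (100037161) at 8.42, 8.59 and 8.63. The inhibitor psmf1.L (495127) stood at 8.68 on all 3 arrays. An equal value on all arrays was found for 2 members (psmf1.L and psmc3.S) and for 14.9% of all gene copies.

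**Figure D3:**
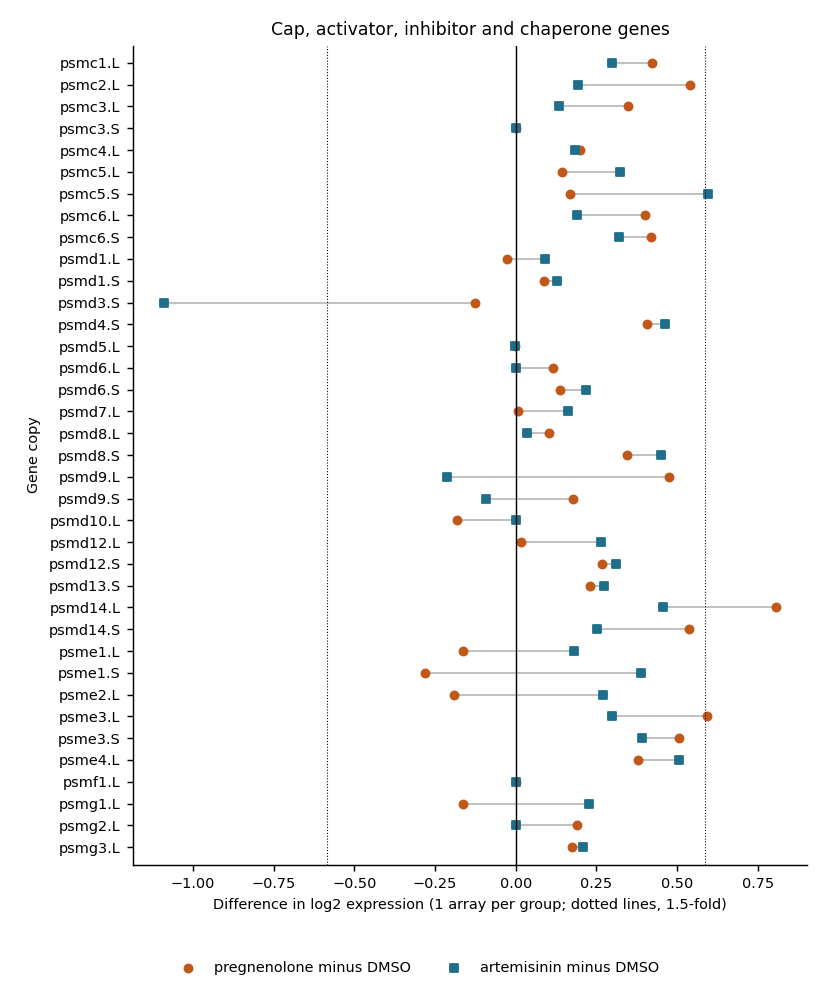
Difference in log2 expression from the DMSO array for the 33 cap and activator gene copies and the 4 inhibitor and chaperone copies, with pregnenolone (orange circles) and artemisinin (blue squares), 1 array per group; dotted lines mark 1.5-fold. psmd14.L and psme3.L pass 1.5-fold with pregnenolone, psmc5.S with artemisinin, and psmd3.S lies at -1.09 with artemisinin.

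The order of the arrays differed between the types of activator, a grouping that was not among those planned. In mammals psme1 and psme2 form the interferon-induced cytosolic activator, psme3 forms a nuclear one, and psme4 encodes a large single-chain activator. The gene psme1.L (494646) stood at 9.61 on DMSO, 9.44 on pregnenolone and 9.79 on artemisinin, psme1.S (444210) at 9.27, 8.99 and 9.66, and psme2.L (444643) at 10.79, 10.60 and 11.06. In all 3 copies pregnenolone was lowest and artemisinin highest, an order shown by 10 members in all and by 10.2% of all gene copies. The difference between the compounds, artemisinin minus pregnenolone, was 0.34, 0.67 (1.59-fold for psme1.S) and 0.46. The nuclear activator had another order: psme3.L (414608) stood at 7.54, 8.13 and 7.84 and psme3.S (494719) at 6.78, 7.29 and 7.17, lowest on DMSO and highest on pregnenolone. The copy psme3.L was 0.59 higher with pregnenolone (1.51-fold), just past the threshold. The gene psme4.L (431915) stood at 7.43, 7.81 and 7.94, with both treated arrays above DMSO.

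Immune genes differed among themselves. The interferon regulatory factor gene irf1.L stood at 9.74 on DMSO, 9.02 on pregnenolone and 10.75 on artemisinin, and irf1.S at 7.82, 7.32 and 8.70, the order of arrays seen for psme1 and psme2. The antigen presentation genes cd74.L, at 11.18, 10.80 and 10.72, cd74.S, at 10.88, 10.51 and 10.53, and b2m.S, at 12.88, 12.66 and 12.72, were highest on DMSO. Over the list of leukocyte and interferon genes, 2 of 12 copies were at least 1.5-fold lower with pregnenolone and 0 higher (median -0.30). Of all gene copies, 3.75% were lower and 4.64% higher. With artemisinin 2 were higher (2.35% of all), both of them irf1 copies, and 0 lower (2.26% of all), with a median of 0.00. The summed linear level of this list was 13560 on DMSO, 10980 on pregnenolone and 12761 on artemisinin. The copies lower with pregnenolone were irf1.L and the leukocyte gene lcp1.S, at 8.66, 8.06 and 8.47. The copy cd53.S stood at 6.69, 6.31 and 6.69, while its other copy cd53.L stood at 6.83, 6.81 and 6.93. The leukocyte gene coro1a.S stood at 6.38, 6.38 and 6.51. Below the level of the median probe set, the leukocyte marker ptprc.L stood at 3.55, 3.33 and 3.55. Also below it were tap1.L, at 3.51, 3.51 and 3.66, and tap2.L, at 2.71 on each array. Over the list 0 copies lay above DMSO and 9 below with pregnenolone (39% and 36.6% of all gene copies). With artemisinin 6 lay above and 4 below (37.1% and 38.8% of all). The part of leukocytes in the psme1 and psme2 values was not tested.

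**Figure D4:**
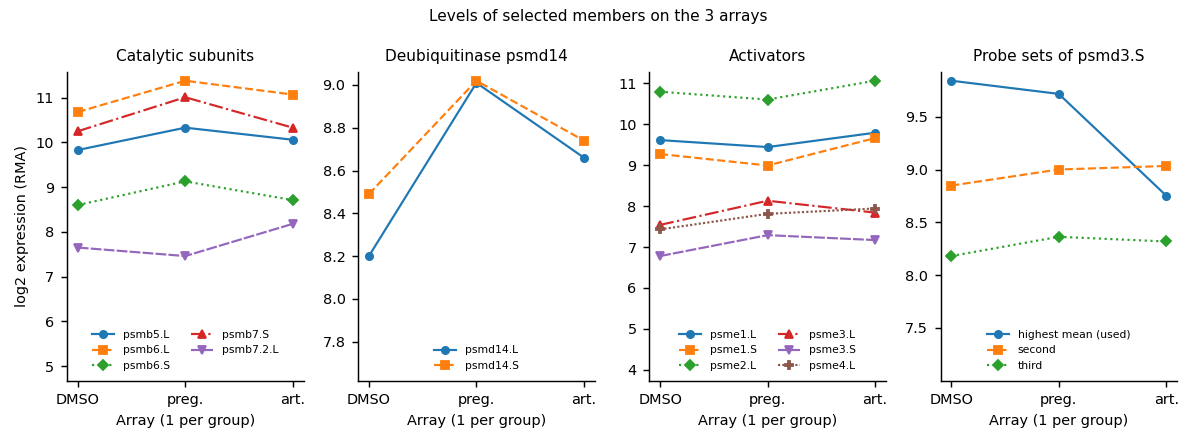
log2 expression on the DMSO, pregnenolone (preg.) and artemisinin (art.) arrays, 1 per group, for the proteolytic subunits, psmd14, the activators and the 3 probe sets of psmd3.S; each line is a gene copy or probe set, and levels of different lines are not comparable. Pregnenolone is the highest array for psmb5, psmb6, psmb7.S, psmd14 and psme3 and the lowest for psmb7.2.L, psme1 and psme2.

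Core and cap genes had similar medians, with no test of the gaps. With pregnenolone the median difference was 0.21 over the 23 core copies and 0.18 over the 33 cap copies, a gap of 0.03. With artemisinin the medians were 0.22 and 0.22, a gap of 0.01, and between the compounds -0.01 and 0, a gap of -0.01. The middle 50% of core copies ran from 0.01 to 0.45 with pregnenolone and from 0.12 to 0.29 with artemisinin, and the middle 50% of cap copies from 0.01 to 0.40 and from 0.09 to 0.32. The lowest value lay on the DMSO array for 17 of 23 core and 22 of 33 cap copies, against 21.7% of all gene copies. Without the 4 copies of chaperone genes the cap medians were 0.20 and 0.26. Leaving them out was not planned, and as 0 of them lay above DMSO with artemisinin, it could only keep or raise that median.

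The .L and .S copies of a gene were read on the same arrays, and probes may bind both copies, so they do not repeat the treatment. For 18 genes both copies were measured. With pregnenolone both lay above DMSO in 13 genes and both below in 2 (psma3 and psme1). With artemisinin both lay above in 15 and below in 1 (psmd9). Both copies thus lay on the same side of DMSO for 83.3% and 88.9% of these genes. Over all genes with both copies on the array the shares were 44.2% and 41.7%. These shares count ties as not on the same side. One or both copies equalled DMSO for 737 and 766 of these 2009 genes, and for 1 and 2 of the 18. The copies lay on opposite sides for 385 and 406 of the 2009 genes, and for 2 and 0 of the 18. Since most members lay above DMSO, the member counts do not show that the copies of a gene go together. The median gap between copies was 0.12 with pregnenolone and 0.13 with artemisinin, and 0.15 and 0.13 over the 2009 genes with both copies on the array. The widest gap was for psma4 with pregnenolone, where the .L copy differed from DMSO by 0.54 and the .S copy by -0.05. For psmb2 these differences were 0.45 and 0.01. With artemisinin the widest gap was for psmd8, at 0.03 for the .L copy and 0.45 for the .S copy. The probe set of psmd8.S is marked for possible cross-hybridisation, and a dimmer probe set of psmd8.L gave 0.27.

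**Figure D5:**
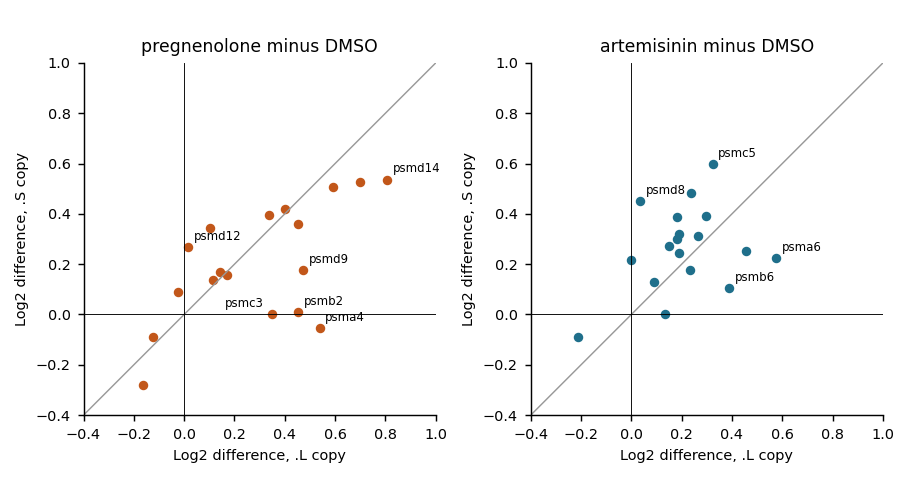
Log2 difference from DMSO of the .S copy against the .L copy for the 18 genes with both copies measured, with pregnenolone (left) and artemisinin (right); the grey line marks equality and genes more than 0.25 apart are named. Most genes lie above 0 on both axes, and psma4, psmb2 and psmc3 lie near 0 for the .S copy with pregnenolone.

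Probe sets of 1 gene copy gauge the technical spread, without the variation between frogs or arrays. Over the 1287 gene copies with several probe sets at or above the level of the median probe set, the SD between them was 0.28 for pregnenolone minus DMSO and 0.22 for artemisinin minus DMSO. For the 6 such members, psmd3.S among them, it was 0.12 and 0.38. The difference from DMSO was smaller than the SD over all such gene copies for 36 of 60 members with pregnenolone and for 31 with artemisinin. The ATPase gene psmc1.L had a difference of 0.42 with pregnenolone, and its next brightest probe sets gave 0.65 and 0.65. With artemisinin these values were 0.30, 0.05 and 0.05. The names of the next brightest probe sets differ only in a mark for cross-hybridisation, so their values are not separate readings.

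Partners of the proteasome also lay above DMSO in most copies, 20 of 32 with pregnenolone and 25 of 32 with artemisinin. Of all gene copies, 39% and 37.1% did. Of the 32 gene copies of shuttle factors, associated enzymes and regulators, 2 stood above DMSO by 1.5-fold or more with pregnenolone and 1 below it (median 0.11). Among all gene copies 4.64% stood above and 3.75% below. With artemisinin 2 stood above (2.35% of all gene copies) and 0 below (2.26% of all), with a median of 0.08. Higher with pregnenolone were txnl1.L, a thioredoxin-like protein bound to the cap, at 8.04 on DMSO, 8.85 on pregnenolone and 8.40 on artemisinin, and ddi2.L at 6.12, 6.78 and 6.60. The protease DDI2 activates NFE2L1 in mammals, and nfe2l1.S itself stood at 7.28, 7.36 and 7.78. On the same list ngly1.S stood at 5.90, 5.57 and 5.65, so both treated arrays lay below DMSO. The part of NFE2L1 in the proteasome values was not tested. The factor zfand5.S, which in mammals stimulates proteasomes, stood at 8.46, 8.96 and 9.12, and zfand5.L at 7.62, 7.84 and 8.20, so both copies were lowest on DMSO and highest on artemisinin. The arsenite-induced partner zfand2a.L stood at 6.90, 6.11 and 9.77, the lowest difference of the list with pregnenolone (-0.79) and the highest with artemisinin (2.87). The ubiquitin receptor adrm1.L stood at 7.32, 7.65 and 7.89, and the deubiquitinase uchl5.L, which it recruits, at 9.59, 9.79 and 9.12. The gene ufd1.S, a cofactor of the segregase vcp, stood at 9.03, 9.57 and 9.09.

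The list for ubiquitin conjugation also holds genes of the related NEDD8 system, such as ube2m and the COP9 signalosome subunits. Of its 37 copies 21 lay above DMSO and 8 below with pregnenolone (39% and 36.6% of all gene copies). With artemisinin 13 lay above and 14 below (37.1% and 38.8% of all), close to the background. At 1.5-fold 0 were higher (4.64% of all gene copies) or lower (3.75%) with pregnenolone (median 0.05). With artemisinin 1 was higher (2.35% of all), with a median of 0. It was keap1.L, at 5.21 on DMSO, 4.99 on pregnenolone and 5.84 on artemisinin. Its mean of 5.34 lay below the level of the median probe set. KEAP1 is the adaptor that marks the antioxidant regulator NFE2L2 for degradation. Between the compounds 1 copy was at least 1.5-fold higher on artemisinin (3.89% of all gene copies) and 2 lower (4.86% of all), close to the background. The higher one was keap1.L, with a log2 difference of 0.85. The lower ones were ube2g2.L and ube2e1.L, for ubiquitin-conjugating enzymes, at -0.85 and -0.71. The cytosolic chaperonin CCT, another complex of many subunits, was listed for comparison. Of its 12 gene copies 10 lay above DMSO with pregnenolone (39% of all gene copies) and 11 with artemisinin (37.1% of all). The CCT medians of 0.14 and 0.20 were near those of the proteasome genes. The CCT subunit gene cct4.S stood at 10.43, 11.10 and 10.48, the 1 copy past 1.5-fold with pregnenolone, and tcp1.S at 9.14, 9.35 and 9.67. Values above DMSO for most copies were thus not seen in proteasome genes alone.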

How the data were processed

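The deposited log2 values come from RMA, run by the authors per the submitters' processing notes, with no version given. RMA corrects background, aligns the array distributions and summarises probe sets. The log2 base was taken from RMA's definition and the range of the values. The number of arrays limits precision. Of 32635 probe sets, 96 were controls, 15495 had 1 gene symbol, 279 several and 16765 none. Of the proteasome probe sets, 73 had 1 symbol and 3 had several and were not used. All 60 members matched a RefSeq gene table by Entrez gene. A symbol that the rule leaves out is not reported here.

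For each gene copy the brightest probe set on average was used, without a level filter. Values within 1e-06 counted as equal. Differences were described with 1.5-fold as threshold, and no test was possible with 1 array per group. The steps were tested on simulated data (Python 3.11.15, pandas 2.3.3, statsmodels 0.14.6). Named members were those past 1.5-fold, the 3 highest and 3 lowest core and cap copies against DMSO, the proteolytic subunits, psmb8, psmd14, activators, inhibitor and chaperones, and list genes past 1.5-fold with up to 4 others. Other genes were named after their values were seen. Members and lists were chosen with earlier results of these data known. Alternatives were other fold thresholds, a level filter, median centring, quantile normalization, loess on mean level (span 0.3), the mean of probe sets, removal of probe sets marked for cross-hybridisation and averaged copies.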

Additional observations from a re-analysis of the deposited data

How the results depend on the processing

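No paired analysis was possible because each group is 1 array, and no replicate could be left out. Over 8 alternatives the core median ranged from 0.17 to 0.24 with pregnenolone and from 0.21 to 0.26 with artemisinin against DMSO, and the cap median from 0.12 to 0.20 and from 0.19 to 0.25. The gap between core and cap ranged from 0.02 to 0.10 and from -0.04 to 0.04, and between the compounds from -0.08 to 0.01, so its sign held for pregnenolone against DMSO only. The counts at 1.5-fold were small and moved most with the threshold. At a log2 difference of 0.32, 23 members were higher with pregnenolone, 13 with artemisinin, and between the compounds 9 were higher and 7 lower on artemisinin. At 2-fold these 4 counts were 0. With artemisinin the higher count of 1 became 2 after quantile normalization or loess and 0 with averaged copies, which also left 1 member higher between the compounds. The lower count with artemisinin became 0 with the mean of probe sets, and also when psmd3.S and the 2 members below the level of the median probe set were left out, an alternative chosen after seeing the data. The mean of its probe sets put psmd3.S at -0.26 against DMSO and at -0.33 against pregnenolone, and quantile normalization put psme3.L at 0.57, below 1.5-fold. No called member changed sign under these alternatives. The number of members lowest on DMSO was between 40 and 46 of 60 under the 3 normalizations, beside 28.5% to 47.0% of all gene copies, and 38 of 60 with the mean of probe sets, beside 22.7%.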
